A study of Mus musculus with 2 samples.

Results

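The genes described here are 9 of the 31053 genes in the expression matrix, and all 9 serve the ribbon synapse of photoreceptors. They are Ctbp2, Bsn, Rims2, Cacna1f, Cabp4, Syp, Vamp2, Stx3 and Cplx4, taken as a list of symbols, and all 9 had UMIs in rods. Their levels were followed across rods, across the 3 sample tags of the rods, and in cells with at least 3 UMIs (unique molecular identifiers, each a counted RNA molecule) of Grm6 or of Trpm1, which are the receptor and the channel of ON bipolar cells and the partners of the rod synapse. Cells that met this rule are called bipolar cells below.

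The study asked how anchoring heterochromatin to the nuclear envelope affects mature rods. Retinas of newborn wild-type mice were electroporated with the plasmid pCIG2, which carries an EGFP reporter, either alone (control), with lamin A (LA), or with the lamin B receptor (Lbr). Viable EGFP-positive cells were sorted by flow cytometry in adulthood, stained with 1 lipid-anchored oligonucleotide tag per condition, and pooled into 1 single-cell run, so each tag is 1 pool with no replicate. The labels do not say which tag marks which condition, hence the pools are called tag 1, tag 2 and tag 3 and are not named control, LA or Lbr. Electroporation reaches cells that are still dividing at birth, a limit of the model, since cones are born earlier and are largely missed. All 3 pools share the plasmid backbone, the electroporation and the sort.

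Rods release glutamate continuously in darkness and lower that release in light. A plate-like ribbon, anchored at the active zone, holds a store of vesicles beside calcium channels that stay open while the cell is depolarized. Calcium entry drives SNARE proteins to fuse the vesicles with the membrane, and complexins regulate this last step. Bipolar cells receive the signal and carry ribbons of their own in their axon terminals.

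All 9 identifiers in the matrix matched the GENCODE vM21 annotation of the mouse genome (GRCm38, mm10). Cacna1f (chromosome X, 7607083 to 7635196) and Syp (chromosome X, 7638471 to 7653256) lie on the plus strand with 3274 bases between them and no other annotated gene wholly in that gap. Ctbp2 (chromosome 7, 132987563 to 133124354, minus strand) makes both the ribbon protein RIBEYE and the corepressor CtBP2. The annotation gives a transcript that starts at 133015248 and codes for 988 codons, the long product of the internal start, and others that start at 133123166 and 133123367 and code for 420 and 445 codons. These 3 transcripts end in the same last exon, whose upper edge is 132988351 in each, so that UMIs read from the 3′ end of the RNA cannot be divided between RIBEYE and CtBP2, and every Ctbp2 value below is for both. Ctbp2 also overlaps the annotated span of Fgfr2 (130162451 to 133123350) on the same strand, and Cabp4 (chromosome 19, 4135423 to 4144033, minus strand) overlaps Gpr152 on the opposite strand.

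Sequence before the start site was read from RefSeq (GRCm38.p6) for 5 of the 9 genes, and Cplx4 was left out of this reading. The capitals mark GGATTA or its complement TAATCC, the core letters bound by the photoreceptor factor CRX, searched on both strands. The site of Ctbp2 is shown because it lies just before the internal start of the RIBEYE transcript. Stx3 and Bsn are shown because they have the highest and the lowest rod level among the 5 genes read. The Ctbp2 run is chr7:133015351-133015380, the Stx3 run chr19:11819404-11819653 and the Bsn run chr9:108190384-108190633, each printed on the minus strand.
Ctbp2: taaggtttcagaGGATTAataatttaggtc
Stx3: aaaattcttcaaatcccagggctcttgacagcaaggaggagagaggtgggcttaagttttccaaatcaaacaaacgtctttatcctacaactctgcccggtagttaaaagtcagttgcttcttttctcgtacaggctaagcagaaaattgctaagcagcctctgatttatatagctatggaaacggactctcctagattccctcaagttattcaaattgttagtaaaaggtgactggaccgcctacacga
Bsn: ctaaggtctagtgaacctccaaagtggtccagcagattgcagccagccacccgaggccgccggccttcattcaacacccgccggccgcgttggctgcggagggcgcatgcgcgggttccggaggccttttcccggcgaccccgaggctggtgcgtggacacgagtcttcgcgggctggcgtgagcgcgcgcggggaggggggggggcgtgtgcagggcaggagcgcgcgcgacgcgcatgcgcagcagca
The match near Ctbp2 begins at position -121 from the start. Syp holds a further match at -246, while the windows of Stx3, Bsn and Cacna1f and the other Ctbp2 start hold none. Of the 32817 mouse promoter windows of 250 bases, 6.25% hold a match. The GC content of the Bsn window was 71.6% and that of Stx3 42.0%, against a median of 52.4% over all windows.

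The matrix held 834 cells with 2487110 UMIs and a median of 2395 UMIs each, and 645 of these barcodes were also in the tag library. After the filter on genes and mitochondrial RNA and the removal of doublets, 343 cells counted as rods. They comprised 190 rods of tag 1 (564216 UMIs), 128 of tag 2 (328334 UMIs), 21 of tag 3 (59821 UMIs) and 4 of no tag. All 15 rod markers were detected in the rods of each tag, at summed levels of 101051 to 145784 CPM (UMIs of a gene per 1e+06 UMIs of the group). The lowest single cell stood at 4494 CPM in tag 2 and 41075 CPM in tag 3. In tag 1 it stood at 0 CPM, so at least 1 cell counted as a rod there had no rod marker. Cone markers were uneven. They summed to 2157 CPM in tag 1, with 1 cell at 76035 CPM, and to 64.0 CPM in tag 2. Tag 3 held 6302 CPM of them, with 1 cell at 59179 CPM. Markers of retinal pigment epithelium summed to 533 CPM in tag 1, with 1 cell at 217234 CPM, and were at 0 in tags 2 and 3. The bipolar rule picked 37 of the 834 cells, of which 23 exceeded the mitochondrial limit and 11 remained in the comparisons, 10 of tag 2 and 1 of tag 3. Grm6 and Trpm1, which chose these 11 cells, are among the 15 bipolar markers. Of the other 13 markers 12 were detected, at 29477 CPM against 96.2 CPM in rods, while rod markers summed to 412 CPM in the bipolar cells. The median depth was 2692 UMIs in rods and 9050 UMIs in bipolar cells. Intervals throughout are exact 95% intervals for counting error, and variation among animals or transfected retinas is not in them.

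Levels are in CPM of summed UMIs. A 3′ UMI count records RNA molecules and not their length, so no length was divided out and genes are compared as molecules. In rods the order ran from Cplx4 and Stx3 down to Bsn. Cplx4 and Stx3, which act in vesicle fusion, each stood apart from the next gene in the order. Vamp2 and Cabp4 did not differ beyond their intervals, nor did Syp and Rims2, nor Ctbp2 and Cacna1f.

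Among proteins of the ribbon and active zone, Rims2, a scaffold that docks vesicles near calcium channels, reached 250 CPM (219 to 284) and was seen in 71 of 343 rods. Ctbp2 gave 53 UMIs in 24 rods, or 55.4 CPM (41.5 to 72.5). Bsn, which encodes the large scaffold Bassoon that anchors the ribbon, gave 5 UMIs in 2 rods, both of tag 1. Bsn was thus the least sampled of the members, and its depth does not allow a comparison.

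Cacna1f, the pore subunit of the presynaptic calcium channel of photoreceptors, gave 42 UMIs in 18 rods, or 43.9 CPM (31.7 to 59.4). Cabp4, a calcium-binding protein that tunes this channel, was higher by its level, with 326 UMIs in 101 rods and 341 CPM (305 to 380).

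Of the vesicle proteins, Vamp2, the vesicle SNARE, reached 366 CPM (329 to 406) in rods and was seen in 100 of 343. Syp, which encodes the abundant vesicle membrane protein synaptophysin, reached 252 CPM (221 to 286) and was seen in 87.

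The fusion genes led the order. Stx3, the plasma membrane SNARE of ribbon synapses, gave 827 UMIs, with 0 to 25 per rod and a median of 1, and 865 CPM (807 to 926). Cplx4, a complexin of photoreceptors, gave 1129 UMIs, with 0 to 27 per rod and a median of 2, and 1181 CPM (1113 to 1252). At least 1 UMI of Cplx4 was found in 73.5% of rods (68.5 to 78.1) and of Stx3 in 54.5% (49.1 to 59.9).

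**Figure D1:**
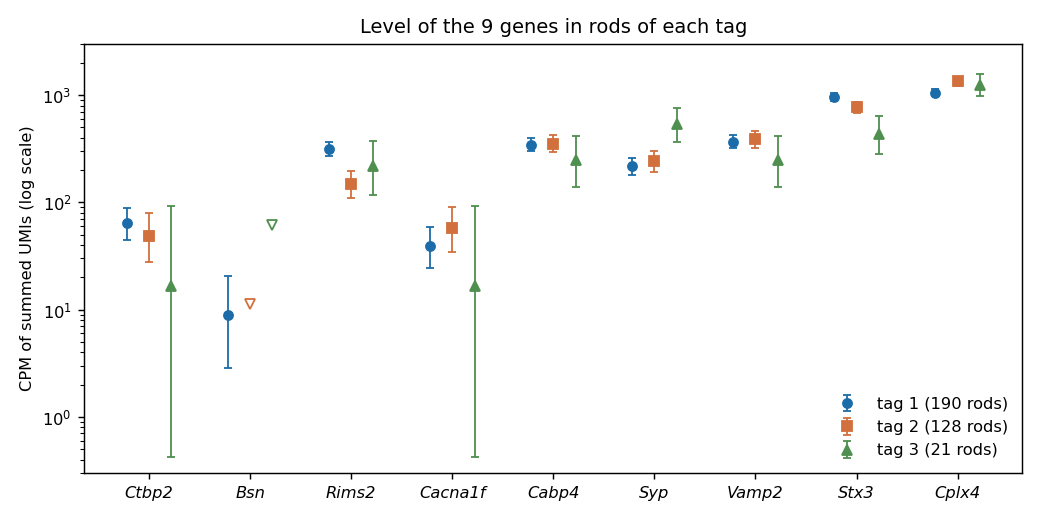
Level of each gene in rods of the 3 tags, in CPM of summed UMIs on a log axis. Filled points are levels with exact Poisson 95% intervals, and open triangles are the upper limits of genes with 0 UMIs. Cplx4 (1055 to 1343 CPM) is the highest gene in every tag, and Bsn has UMIs only in tag 1.

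UMIs of a member were more grouped within cells than 1 mean for all rods would give. Rods with Cplx4 held 4.48 UMIs of it on average, where independent draws at its mean would give 3.42, and for Rims2 the values were 3.37 and 1.39. For Cacna1f they were 2.33 and 1.06. Rods differed in depth (512 to 12461 UMIs), which these independent values leave out, and the part of depth in the excess was not tested. The counting intervals hold neither such grouping nor variation among animals, so they are narrower than the true uncertainty.

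The 9 genes were rarely seen together in a rod. A rod had UMIs of 2 members at the median and 6 at most, and 25 of 343 rods (7.29%) had none. Detection followed depth, since the shallowest 114 rods (512 to 2235 UMIs) averaged 1.84 members and the deepest 115 rods (3132 to 12461 UMIs) 3.06, while the summed level was 3515 and 3301 CPM. With each cell thinned to 1200 UMIs, rods of tag 1 averaged 2.01 members, of tag 2 1.75 and of tag 3 1.50. Over all rods 33 cells were too shallow to thin.

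**Figure D2:**
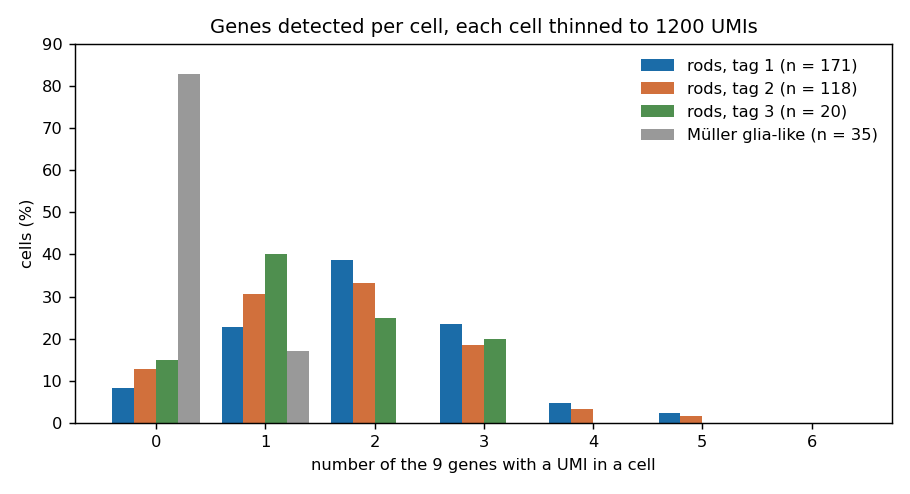
Percent of cells by the number of the 9 genes with a UMI, each cell thinned to 1200 UMIs, for rods of the 3 tags and for the Müller glia-like cluster. Rods of each tag peak at 1 or 2 genes. Of 84 Müller glia-like cells 49 were too shallow to thin, and 82.9% of the other 35 have none.

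Clusters of other cell classes, drawn from a clustering of all cells with no filter, gave the background. The Müller glia-like cluster of 84 cells was shallow (median 1130 UMIs, against 2692 in rods), and 74 of its cells were not in the tag matrix. Mitochondrial RNA made up 53.1% of its UMIs, against 11.8% in rods, its rod markers summed to 11532 CPM and its Müller glia markers to 7257 CPM, and 8 of its cells also counted as rods. In this cluster the members summed to 470 CPM against 3359 CPM in rods, and 79.8% of cells had none. Cplx4 stood there at 140 CPM with a UMI in 5.95% of cells, Vamp2 at 147 CPM and 10.7%, and Stx3 at 29.4 CPM and 2.38%. Without the 8 shared cells the members summed to 401 CPM. When mitochondrial, haemoglobin and Malat1 UMIs were left out of the totals, they summed to 1006 CPM against 3830 CPM in rods, and in the 13 cells at or below the mitochondrial limit to 2001 CPM (1205 to 3125), from 19 UMIs. The level in this cluster therefore depended on which cells and totals were used. In 17 microglia-like cells (median 3372 UMIs) 1 cell held 5 UMIs of Ctbp2 and the other 8 genes were at 0. The rod shares of Rims2, Cabp4, Syp, Vamp2, Stx3 and Cplx4 lay above those of both clusters. With each cell thinned to 1200 UMIs, Cplx4 was in 60.0% of rods and 11.4% of Müller glia-like cells, Stx3 in 42.6% and 0 of 35 cells, and Vamp2 in 20.3% and 2.86%. Ctbp2 was found in 24 of 343 rods and Cacna1f in 18, against 0 of 84 Müller glia-like cells. A count of 0 in 84 cells allows, at 3 counts, a share of cells with a UMI of up to 3.57%, and 5.88% of microglia-like cells had Ctbp2.

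A cone-like cluster of the same clustering held 10 cells (median 2616 UMIs), 4 of which also counted as rods and 6 of which exceeded the mitochondrial limit. Cone markers summed to 53426 CPM there and rod markers to 34539 CPM, and the members to 3006 CPM, or 3062 CPM without the 4 shared cells. Cplx4 was at 567 CPM (346 to 876) there, below its rod level, and Stx3 also at 567 CPM. Syp stood at 482 CPM (281 to 772) and Cabp4 at 312 CPM (156 to 558), with Cabp4 in 6 of 10 cells. Rims2 had 19 UMIs, 15 of them in 1 cell. In the 6 cells not shared with rods Cplx4 was at 136 CPM (16.5 to 492), Stx3 at 885 CPM (471 to 1513) and Syp at 272 CPM (74.2 to 697). In each of these values the few cells set the precision.

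**Figure D3:**
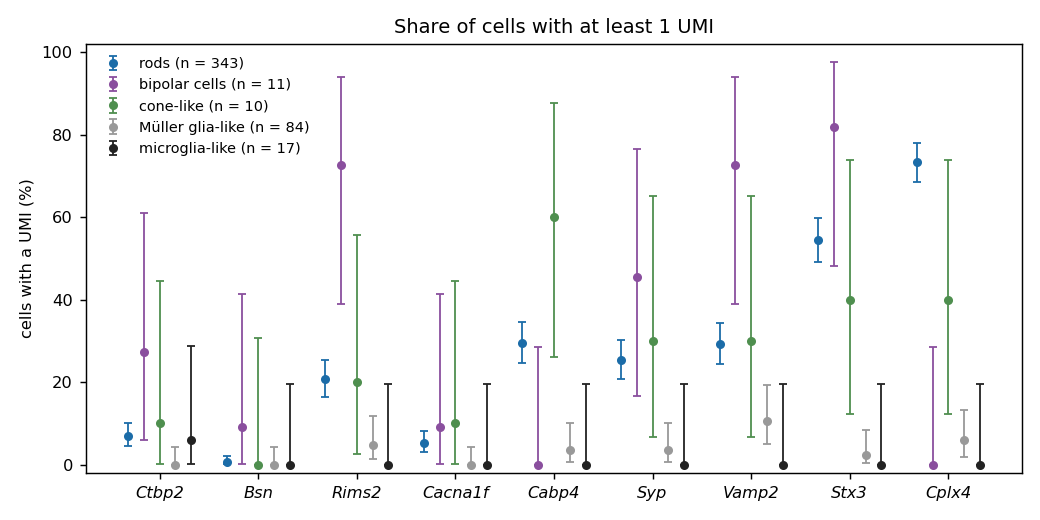
Percent of cells with at least 1 UMI of each gene in rods, bipolar cells, and cone-like, Müller glia-like and microglia-like clusters, with exact Clopper-Pearson 95% intervals. Cplx4 is in 73.5% of rods and in 0 of 11 bipolar cells, while Stx3 is in 9 of 11 bipolar cells. Cells were not thinned here, bipolar cells were the deepest, and 4 cone-like and 8 Müller glia-like cells are also among the rods.

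Bipolar cells carried Stx3, Vamp2, Syp and Rims2, as rods did, but held no UMI of Cplx4 or Cabp4. Cplx4 had 0 UMIs in all 11 bipolar cells against 1129 UMIs in rods. It was 37.3-fold lower when set to the floor of 3 counts over the group, and the bound of its log2 interval was -4.92. Cabp4 likewise had 0 UMIs against 326, 10.8-fold lower at this floor, with an interval bound of -3.12. Both genes were thus at 0 in cells more than deep enough to show Stx3, Vamp2 and Rims2, and 0 of 11 cells allows, at 3 counts, a share of cells with a UMI of up to 27.3%. Counts are of genes past 2-fold with at least 20 expected UMIs in both groups, a description and not a test. Of 6 members that met this minimum, 2 were past 2-fold, both lower, where 45.1% of the 665 genes compared were past 2-fold, 37.1% lower and 7.97% higher. The minimum favours genes high in rods. A gene needed 223 UMIs over both cell types, which is 233 CPM if all are in rods and 2356 CPM if all are in bipolar cells, so the split into lower and higher is set in part by the minimum. The median log2 ratio of those 665 genes was -0.61, and that of the 6 members -0.20, also when Cplx4 and Cabp4 are set to the floor of 3 counts.

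The other members were present in both cell types. Vamp2 had 0 to 13 UMIs per bipolar cell (median 4) and stood at 560 CPM against 366 CPM in rods, a log2 ratio of 0.62 (0.17 to 1.03). Rims2 had 0 to 7 UMIs (median 2) and 370 CPM against 250 CPM, a ratio of 0.58 (0.01 to 1.08). Both were seen in 8 of 11 bipolar cells, and after thinning to 1200 UMIs Vamp2 was in 36.4% and Rims2 in 27.3% of them, against 20.3% and 15.2% of rods. Syp had 29 UMIs in 5 bipolar cells, 12 of them in 1 cell, and its ratio of 0.30 (-0.33 to 0.84) spanned 0. Stx3 had 0 to 10 UMIs (median 5) in bipolar cells and was lower in level, at 528 CPM against 865 CPM, with a ratio of -0.70 (-1.15 to -0.30), near the median of all genes. Ctbp2 with 3 UMIs (-0.60, -3.13 to 0.82), Cacna1f with 2 (-0.75, -4.15 to 0.89) and Bsn with 1 (1.46, -4.55 to 4.17) could not be placed against rods at this depth. Within tag 2 alone, 10 bipolar cells against 128 rods, the same number of members passed 2-fold, and the ratio of Rims2 was 1.44 and of Vamp2 0.26. With no filter on genes or mitochondrial share and cells clustered again, the ratio of Rims2 was -0.15, and when each cell counted once per gene that of Vamp2 was -0.14.

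Where a member was at 0 in bipolar cells, its paralog was high. Cplx3, the complexin of inner retinal ribbon synapses and cones, had 4 to 33 UMIs in every bipolar cell (median 9) and 145 in all, or 1532 CPM, against 48 UMIs and 50.2 CPM in rods, a log2 ratio of 4.92 (4.45 to 5.43). Cabp5, a calcium-binding protein of bipolar cells, had 1 to 35 UMIs in every bipolar cell (median 12) and 1426 CPM against 8.37 CPM, a ratio of 7.33 (6.39 to 8.65). All 8 Cabp5 UMIs of the rods came from 1 cell. In the clustering of all cells, rods on either side of the mitochondrial limit had 0 UMIs of Cabp5, while 1 cone-like cell had 8. Whether the 1 cell was a rod is therefore unsure. Both paralogs were under the minimum of expected UMIs (17.4 and 12.9) and are not in the counts past 2-fold. Complexin and calcium-binding paralogs thus divided the 11 bipolar cells from rods in opposite directions.

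The paralogs of the channel and of the scaffold were also higher in bipolar cells, at lower counts. Their members Cacna1f and Bsn could not be placed against rods, so no opposite direction is shown for these pairs. Cacna1d, a related calcium channel pore, had 15 UMIs in 7 of 11 bipolar cells and 0 in rods. Pclo, which encodes the scaffold Piccolo, had 18 UMIs in 5 bipolar cells and 27 in 9 rods, a ratio of 2.76 (1.80 to 3.67). Ctbp1, by contrast, had 45 UMIs in rods and 0 in bipolar cells, and the bound of its interval was -0.21. Stx1a, Cplx1, Cplx2 and Rims1, the forms used at conventional synapses, had no UMI in either cell type, and Vamp1 and Synpr had at most 3.

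**Figure D4:**
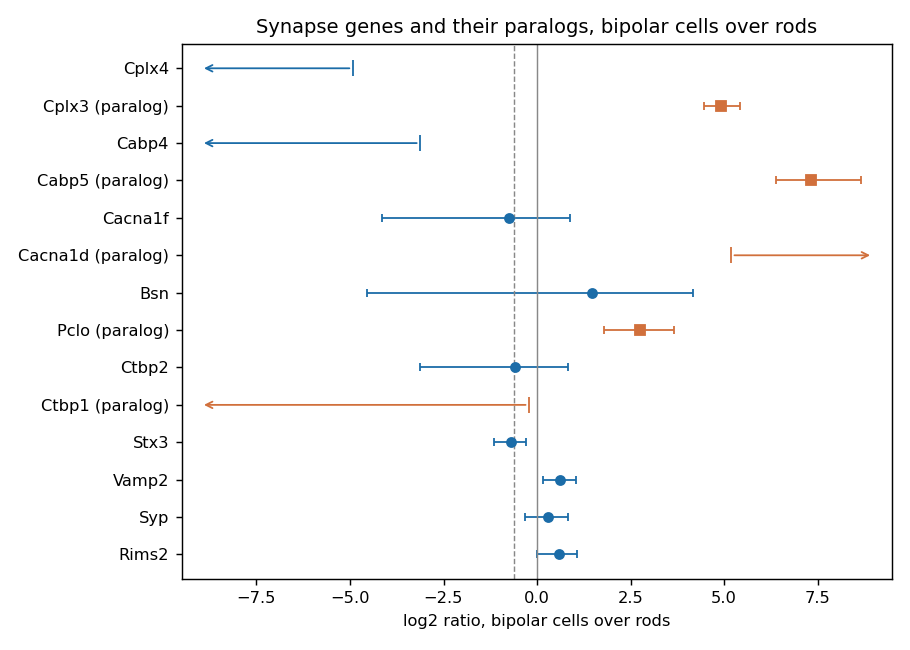
Log2 ratio of bipolar cells over rods for the 9 genes (circles) and for 5 paralogs (squares), with exact conditional 95% intervals. Arrows start at the interval's finite bound where a group had 0 UMIs, and the dashed line is the median of all 665 genes compared. Cplx4 and Cabp4 lie far to the left, Cplx3 and Cabp5 far to the right.

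Over 5 lists of other presynaptic genes (78 genes), 13 had enough UMIs to compare and 7 were past 2-fold higher and 4 lower in bipolar cells, beside the 7.97% and 37.1% of all genes. Calcium handling and fusion genes were on the higher side. Calm2, which encodes calmodulin, had a ratio of 1.22, the plasma membrane calcium pump Atp2b1 1.88, the SNARE Snap25 1.77 and the calcium sensor Syt1 1.29. The vesicle genes Sv2b and Rab3a had 1.35 and 1.32. On the lower side were Unc119 (-3.53), a photoreceptor protein that binds the ribbon, the vesicular glutamate transporter Slc17a7 (-2.26) and the adhesion gene Cadm2 (-3.29). Mpp4, a scaffold of the rod terminal, was also lower, with 0 UMIs in bipolar cells and 231 in rods. At the floor of 3 counts it was 7.62-fold lower, with an interval bound of -2.62.

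Among rods of the 3 tags the summed members had intervals of their ratios that held 0, at levels of 3378, 3350 and 2976 CPM for tags 1, 2 and 3. Tag 2 over tag 1 gave a log2 ratio of -0.01 (-0.12 to 0.10). Tag 3 gave -0.18 (-0.41 to 0.04) relative to tag 1, and -0.17 (-0.41 to 0.06) relative to tag 2. The sums of tag 3 were not stable, since the ratio to tag 1 was -0.74 without the top cell of each gene, -0.53 without a filter on cells and -0.52 with Scrublet doublets kept. The ratio of tag 2 to tag 1 also rose above its interval with a tag call of 90%, which left 23 rods of tag 2 and 54 of tag 1. With the limits of 1 pool per tag, a difference between tags and one between pools of animals cannot be told apart. The ratios of tags 2 and 3 over tag 1 share the rods of tag 1.

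In tag 2 against tag 1, 1 of 6 members compared was past 2-fold, beside 13.3% of 2162 genes. This was Rims2. Tag 2 held 49 UMIs of it, in 21 of its 128 rods, and tag 1 held 177, in 47 of its 190, or 149 against 314 CPM, a log2 ratio of -1.06 (-1.56 to -0.61). It was found in 16.4% and 24.7% of these rods, and in 10.2% and 18.7% after thinning. Rims2 stayed within 2-fold when Scrublet doublets were kept (-0.94), at a coarser clustering (-0.96), with another random seed for clusters and doublets (-0.84) and when each cell counted once (-0.36). Cplx4 was somewhat higher in tag 2, 1343 against 1055 CPM, with a ratio of 0.35 (0.17 to 0.53), and Stx3 lower, 771 against 966 CPM, with -0.32 (-0.55 to -0.11). After thinning, Cplx4 was in 60.2% of tag 2 and 60.8% of tag 1 rods, and Stx3 in 39.8% and 45.0%. With a tag call of 90% the ratio of Cplx4 was 0.79 and that of Stx3 was 0.30, so the direction of Stx3 turned. For Cabp4 (0.03, -0.31 to 0.37), Vamp2 (0.07, -0.26 to 0.39) and Syp (0.15, -0.28 to 0.56) the intervals held 0. With the tag call of 90%, Cabp4 (0.58) and Syp (-0.70) left these intervals, while Vamp2 (0.22) did not. For Ctbp2 (36 UMIs in tag 1, 16 in tag 2) and Cacna1f (22, 19) the UMIs were too few to compare.

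In tag 3, with 21 rods, 4 members could be compared. Stx3 was past 2-fold against tag 1, with 26 UMIs in 9 of 21 rods against 545 in 113 of 190 and a ratio of -1.13 (-1.78 to -0.59), beside 11.9% of 427 genes. It fell within 2-fold without the cells rich in cone markers (-0.99), with Scrublet doublets kept (-0.20) and with another random seed (-0.58), a setting that left 11 rods in tag 3. None of the 4 was past 2-fold against tag 2, beside 13.1% of 404 genes, and Stx3 there had a ratio of -0.80 (-1.47 to -0.24). Syp went the other way, with 32 UMIs in 10 of 21 rods, 535 CPM where tag 1 had 218 CPM and tag 2 had 241 CPM, with ratios of 1.31 (0.69 to 1.87) and 1.17 (0.51 to 1.76), but its expected UMIs were under the minimum. With Scrublet doublets kept, which left 15 rods in tag 3, the ratios of Syp were 0.08 and -0.02, and with a tag call of 90%, which left 3, they were -2.03 and -1.33, so its direction turned with the setting. A single rod of tag 3 held 27 of the 75 Cplx4 UMIs of that tag. The uneven cone markers of tags 1 and 3 moved with these comparisons, and their part in them was not tested beyond the values without the cone-rich cells.

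Of the 78 other synapse genes, 28 could be compared between tags 2 and 1. Of these, 2 were past 2-fold, both lower in tag 2, the scaffolds Dlg4 (-1.27) and Lin7c (-1.02), beside 13.3% of all genes past 2-fold in either direction. Against tag 1, 3 of 8 were past 2-fold, all lower in tag 3, namely Calm2 (-1.75), Slc17a7 (-1.37) and Snap25 (-1.14), beside 11.9% of all genes in either direction. Against tag 2, where the same 21 rods of tag 3 entered, these were also the 3 past 2-fold of 7 compared, all lower. Their ratios were -1.37, -1.20 and -1.39, beside 13.1% of all genes in either direction. For Slc17a7, 3 of 21 tag 3 rods held a UMI, against 103 of 190 tag 1 rods. With another random seed, 1 of 2 such genes was lower than in tag 1 and 0 of 2 than in tag 2.

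**Figure D5:**
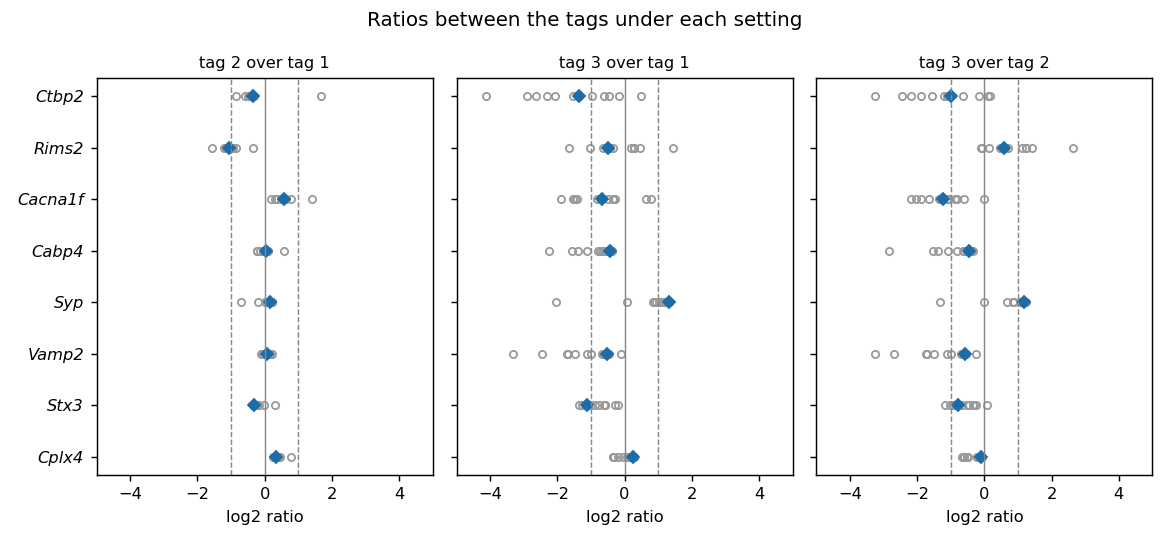
Log2 ratios between the tags for 8 of the 9 genes, as reported (diamonds) and under each alternative setting (open circles). Dashed lines mark 2-fold, and Bsn is left out because it had 0 UMIs in tags 2 and 3. The spread over settings is wider in tag 3, with 21 rods, than in tag 2 over tag 1.

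The tags also differed in mitochondrial RNA, whose median share of UMIs per rod was 10.7% for tag 1, 14.3% for tag 2 and 11.1% for tag 3. Rods were therefore compared across the limit of 18% itself, 237 cells above it against 360 at or below it, drawn from a clustering of all cells. Of the cells above it 144 were of tag 2 and 40 of tag 1, and of those below 136 and 197, so the comparison mixes the limit with the tags. The summed members stood at 2857 CPM above and 3352 CPM below, a ratio of -0.23 (-0.32 to -0.14), close to the median of -0.25 over 3032 genes. When mitochondrial, haemoglobin and Malat1 UMIs were left out of the totals, the ratio was -0.03. Of 8 members compared, 1 was past 2-fold, beside 13.7% of all genes. This was Cacna1f (1.49, 0.91 to 2.10), with 62 UMIs in 12 cells above the limit and 41 in 19 below, and 26 of the 62 came from 1 cell. Within tag 1 its ratio was -1.02 and within tag 2 it was 0.64. Ctbp2 stood at 0.79 (0.20 to 1.38), with 1.84 within tag 1 and 0.29 within tag 2. Rims2 stood at -0.60 (-0.97 to -0.25), with -1.18 within tag 1 and 0.11 within tag 2, where the direction turned. Among the other synapse genes 1 was higher past 2-fold above the limit, Lrit2 (1.66), and 1 was lower, Ppfia2 (-1.05).

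The patterns most like the leading members were taken over 7 groups of cells, the 3 tags of rods, bipolar, cone-like, Müller glia-like and microglia-like, among 3168 genes, with levels as log2(CPM + 10). Cplx4 was closest to Nxnl1, Rgs9 and Vopp1, with Pearson r of 0.9992, 0.9974 and 0.9970, and 61 genes reached 0.95 or more. Stx3 was closest to Rufy3, Rora and Slc30a9 (0.9856, 0.9853 and 0.9849). Vamp2 was closest to Rnf14, Bola3 and Rtn4 (0.9974, 0.9904 and 0.9841). The groups share 1 library, 3 cone-like and 6 Müller glia-like cells are also tag 1 rods, 1 cone-like cell is a tag 3 rod and 1 Müller glia-like cell a tag 2 rod, and the r values are a description.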

How the data were processed

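The authors counted reads with Cell Ranger against mm10, and the deposited matrix holds raw UMI counts per gene and cell barcode. The study's methods and the labels name version 6.1.2, the matrix header 3.1.0, and neither annotation release nor strand use is stated in these sources. The deposited tag counts and the tag calls made by the authors were used as they stand. Barcodes called tag doublets were left out.

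Cells had 200 to 2500 genes and at most 18% mitochondrial UMIs, and Scrublet in scanpy 1.11.5 (expected rate 6%) called 29 of 409. Leiden clustering (2000 variable genes, 30 components, 15 neighbours, resolution 1) left out the 9 genes and the synapse lists, and clusters were named from fixed markers. A first run with random seed 1 left a cluster of 61 cells unnamed, so seed 0 was chosen after its cluster names and doublet calls were seen. Scrublet called 5 to 36 cells over 10 seeds.

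UMIs were summed per group. Log2 ratios added 0.5 UMIs to both sums. With 1 pool per tag, groups were described without tests or p-values. Intervals are exact: Poisson, Clopper-Pearson or conditional. The ratio code was tested on simulated data. All 9 genes and their paralogs are named, and of 5 lists each gene with at least 20 expected UMIs that was past 2-fold, except for genes not reported here. The genes and lists were chosen with earlier results of these data known. Alternatives changed 1 choice at a time.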

Additional observations from a re-analysis of the deposited data

How the results depend on the processing

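Of 516 values of single members under the alternatives, 447 stayed inside their counting interval, 68 left it, and 1 that had been past 2-fold with enough UMIs changed sign, which was Cacna1f across the mitochondrial limit within tag 1 (-1.02). Syp in tag 3 was under the minimum of UMIs and turned to -2.03 against tag 1 and -1.33 against tag 2 with the tag call of 90%. The lower Cplx4 and Cabp4 of bipolar cells were the most stable result, with 2 members past 2-fold in all settings except 2. These gave 1 because fewer genes met the minimum (1 count per gene and cell, and a minimum of 50 expected UMIs). The 0 UMIs of both genes are given for the filtered cells only. With no filter on cells the ratio of Cabp4 was -5.33, against -6.01 as reported, and that of Cplx4 -9.44, against -7.80. The summed ratio of bipolar cells to rods was -1.14 when each cell counted once per gene and -1.27 without each gene's top cell.

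For tag 2 over tag 1, 0 members were past 2-fold with Scrublet doublets kept and cells clustered again, with 1 count per gene and cell, at Leiden resolution 0.5 and with random seed 1. For tag 3 over tag 1, 0 of 2 members compared were past 2-fold with doublets kept, at resolution 0.5, with random seed 1 and without cone-rich cells, and 0 of 4 with CPM averaged over cells. With a tag call of 90% (3 rods of tag 3), and when each cell counted once per gene, the count was 0 because no member met the minimum, while 3 were without a filter and 2 at a minimum of 10 expected UMIs. For tag 3 over tag 2, 2 were without a filter, and 1 without the top cell, with averaged CPM and at a minimum of 10. Summed ratios of tag 3 over tag 1 were -0.53 without a filter, -0.52 with doublets kept and -0.74 without the top cell, and of tag 3 over tag 2 -0.47, -0.47 and -0.70, and -0.69 with the tag call of 90%. That call gave 0.31 for tag 2 over tag 1, with 23 and 54 rods left.

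Across the mitochondrial limit, 2 members were past 2-fold without a filter on genes, and 0 with 1 count per gene and cell, without the top cell, with averaged CPM, at a minimum of 50 and within tag 2. The summed ratio was 0.02, -0.33 and -0.03 with 1 count, without the top cell and with the reduced totals, and -0.49 and -0.14 within tags 1 and 2. The summed level in the Müller glia-like cluster moved from 470 to 401, 2001 and 1006 CPM under the settings given above. These settings of the clusters, random seed 1, tag doublets kept and the comparisons within a tag across the mitochondrial limit were chosen after seeing the data. Depth limits Ctbp2, Cacna1f and Bsn in each comparison. No paired analysis was possible because each tag is 1 pool with no replicate.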
